A study of Rattus norvegicus with 2 samples.

Results

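The S100 genes encode small calcium-binding proteins, and 9 of them were followed in rat adductor muscle after needling: S100a1, S100a3, S100a4, S100a6, S100a8, S100a9, S100a10, S100a11 and S100a13. They were taken by symbol from the platform annotation, in which each had 1 probe set, and they make up 9 of the 14217 genes with a probe set of 1 symbol. The choice was made with earlier results of these data known. Of the 9, 8 gave a signal above the floor described below on both arrays, and S100a8 did so on neither. The stimulated sample was adductor muscle, which lies on the inner thigh, from the left hindlimb of male Lewis rats of 275 g, taken 24 hours after 100 pricks with a steel needle of 0.14 mm within a square of 10 mm by 10 mm. The control sample was adductor muscle of the right hindlimb, which received no treatment, from male Lewis rats of the same weight. The labels give no age, no number of animals and no statement on whether both pieces came from 1 rat or from a pool. Each limb was measured on 1 array, so replicate error is unknown, no p-value is given, and "higher" and "lower" speak of these 2 samples alone.

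S100 proteins carry paired EF-hand loops, mostly work as dimers, and change shape on binding calcium so that they can hold a target protein. Inside the cell they act on the cytoskeleton, on annexins at membranes and on calcium channels and pumps, and several are released from damaged or activated cells and act on receptors of innate immunity. In striated muscle S100a1 is the family member best known in the fibre itself, whereas S100a4, S100a6, S100a10 and S100a11 are known from fibroblasts, endothelium, leukocytes and other cells, and S100a8 and S100a9 from neutrophils and monocytes.

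In the muscle of the stimulated limb, S100a4 was 3.31-fold, S100a6 2.004-fold, S100a10 1.70-fold and S100a11 1.32-fold higher than in the control limb. The muscle gene S100a1, the neutrophil gene S100a9, S100a13 and S100a3 differed by less than the spread between probe sets of the same gene. Of the 8 measured genes, 2 were higher by 2-fold or more and 0 were lower by as much, where 1.43% of the 9956 measured genes were that much higher and 1.43% that much lower. At a 1.5-fold difference, 3 of the 8 were higher and 0 lower, against 6.59% and 6.94% of all measured genes. The median log2 ratio of the 8 was 0.34, and that of all measured genes was 0.019. In all, 5 of the 8 lay above 0 and 3 below, while 52.3% of all measured genes lay above 0. These counts leave out the 2 other S100 genes that were measured, S100b at a log2 ratio of -0.38 and S100a16 at -0.022.

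Values are MAS5 signals, linear intensities of the manufacturer's algorithm, and they are compared between the limbs, not between genes. Signals summed over marker genes are given beside some results, in which bright probe sets weigh most and those below the floor are included. Signals under a floor of 19.8, the median of all probe sets other than controls on both arrays, were raised to it, and the stimulated value was then divided by the control value and put on the log2 scale. The only error at hand came from 2174 genes that had a pair of probe sets reaching the floor in both samples. Their log2 ratios differed with an SD of 0.44, which is 0.31 for a single probe set, and 0.36 in the dimmest and 0.25 in the brightest 724 of these genes. It holds nothing of how limbs or animals vary. The log2 signals of the arrays correlated across genes with a Pearson r of 0.97, and the beta-actin control probe sets, read as 3' over 5' signal, gave 2.43 in stimulated muscle against 2.26 in control muscle. All 9 marker genes of skeletal muscle fibres were measured in both samples, with a summed signal of 69577 in stimulated muscle against 89150 in control muscle. These genes are bright, and their sum was not recomputed under other scalings. The 18 hybridisation spike-in probe sets all read lower in the stimulated sample (median log2 ratio -0.38). Scaling to them raised the log2 ratio of the median gene to 0.39, so the ratios given here, and the direction of small ones, depend on the authors' scaling. S100a1, S100a3 and S100a9 then lay above 0, while S100a4, S100a6, S100a10, S100a11 and S100a13 lay above 0 with either scaling. Under the authors' scaling the trimmed mean signal was 76.48 on both arrays, and the median gene lay at 0.019.

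**Figure D1:**
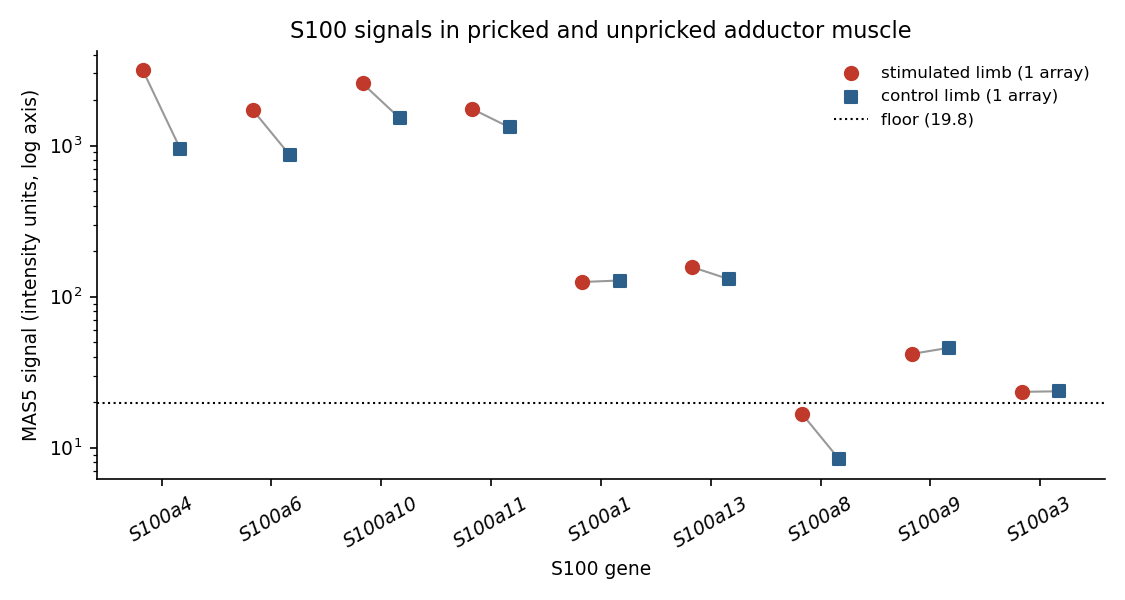
MAS5 signal (log axis) of the 9 S100 genes in the stimulated limb (red circles) and the control limb (blue squares), 1 array each, with the floor of 19.8 as a dotted line. The stimulated value lies above the control value for S100a4, S100a6, S100a10 and S100a11, the values nearly coincide for S100a1 and S100a3, and both values of S100a8 lie below the floor.

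All 9 genes lie on chromosome 2 in the RefSeq gene table of the GRCr8 assembly, which lists 20 protein-coding S100 genes, 16 of them on that chromosome. The table of gene starts held 6 of the 9 genes, and the windows of 3 genes that were higher in the stimulated limb, S100a4, S100a6 and S100a11, are shown with that of S100a9, which was not. Each runs 5′ to 3′ from 250 bases before the annotated start to 50 bases after it, credited to RefSeq, build GRCr8. They lie at chr2:178388279-178388578 on the plus strand (S100a4), at chr2:178398287-178398586 on the plus strand (S100a6), at chr2:181874882-181875181 on the plus strand (S100a11) and at chr2:178490573-178490872 on the minus strand (S100a9). Capitals mark TATAAA, the TATA box, and GGGCGG, the GC box, on either strand.
S100a4: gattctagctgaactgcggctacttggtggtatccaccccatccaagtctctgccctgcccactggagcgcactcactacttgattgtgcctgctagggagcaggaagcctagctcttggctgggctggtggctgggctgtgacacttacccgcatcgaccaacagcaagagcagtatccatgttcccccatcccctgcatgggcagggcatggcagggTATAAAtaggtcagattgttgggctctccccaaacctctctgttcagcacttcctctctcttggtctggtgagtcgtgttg
S100a6: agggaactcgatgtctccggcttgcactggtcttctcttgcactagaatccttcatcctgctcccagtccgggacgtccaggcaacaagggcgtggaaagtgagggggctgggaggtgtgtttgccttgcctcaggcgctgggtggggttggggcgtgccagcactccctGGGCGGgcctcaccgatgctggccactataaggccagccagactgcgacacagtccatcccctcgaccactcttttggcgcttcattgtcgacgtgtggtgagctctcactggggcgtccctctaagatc
S100a11: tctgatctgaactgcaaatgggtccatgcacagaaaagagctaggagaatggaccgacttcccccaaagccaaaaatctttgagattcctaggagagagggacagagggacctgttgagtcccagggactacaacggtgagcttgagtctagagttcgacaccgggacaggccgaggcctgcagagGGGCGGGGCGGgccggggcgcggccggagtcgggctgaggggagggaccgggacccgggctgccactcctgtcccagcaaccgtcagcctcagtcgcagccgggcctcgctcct
S100a9: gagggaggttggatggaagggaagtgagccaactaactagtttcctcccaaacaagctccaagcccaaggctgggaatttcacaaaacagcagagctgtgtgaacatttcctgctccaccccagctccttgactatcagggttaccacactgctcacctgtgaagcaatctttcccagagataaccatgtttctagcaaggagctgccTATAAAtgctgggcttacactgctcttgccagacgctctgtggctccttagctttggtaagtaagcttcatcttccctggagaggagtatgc

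The 3 genes that were higher did not all hold the same motif. The window of S100a4 held TATAAA, beginning 31 bases upstream of the start, and no GGGCGG. The window of S100a6 held GGGCGG, 80 bases upstream, and that of S100a11 held it at 64 and 59 bases upstream in overlapping copies, and neither held TATAAA. The genes that hardly differed held the same motifs, with TATAAA 42 bases upstream in S100a9 and GGGCGG 82 and 130 bases upstream in S100a13 and S100a3. Among 33469 windows of the same length in the table, 14.2% held TATAAA and 33.1% held GGGCGG on either strand. Also searched on both strands were TGANTCA (AP-1, in 0 of the 6 windows and 7.33% of all), TTCNNNGAA (STAT, in 0 of the 6 and 8.87% of all), GGAATG (TEAD, in S100a3 and 14.2% of all) and CANNTG (E-box, in S100a11, S100a9 and S100a3 and 72.1% of all). TATAAA and GGGCGG hits did not overlap each other, and a match or its absence describes the letters of this window only. The G and C content was 56.3% in S100a4, 61.3% in S100a6, 63.0% in S100a11 and 50% in S100a9, against a median of 51.7% over all windows.

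S100a4 (Entrez gene 24615, also called metastasin or fibroblast-specific protein) binds non-muscle myosin IIA and is linked to cell motility. Its signal was 3152 in stimulated muscle against 953 in control muscle, 159 and 48.2 times the floor. The log2 ratio was 1.73, which is 5.54 times the SD of a single probe set. The gene ranked 32 from the highest of the 9956 measured genes. Its lowest log2 ratio under the 8 alternatives to the processing was 1.68.

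S100a6 (Entrez gene 85247, calcyclin) is a growth-regulated member that binds the calcyclin-binding protein Cacybp. It had a signal of 1723 in stimulated muscle against 860 in control muscle, a log2 ratio of 1.003 and 3.22 times the SD of a probe set. It ranked 139 from the highest. Its call as 2-fold higher sat on the threshold, since the log2 ratio was 0.98 when ratios were centred on the median gene, 0.97 with quantile normalization and 0.99 with 16 added to both signals.

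S100a10 (Entrez gene 81778, p11) has lost the ability to bind calcium and works as the light chain of a complex with annexin A2, which carries plasminogen and ion channels at the plasma membrane. Its signal was 2577 in stimulated muscle against 1514 in control muscle, a log2 ratio of 0.77 and 2.46 times the SD of a probe set. S100a11 (Entrez gene 445415, calgizzarin), which binds annexin A1 and annexin A2 and takes part in plasma membrane repair, had a signal of 1744 in stimulated muscle against 1318 in control muscle. Its log2 ratio of 0.40 was 1.30 times the SD of a probe set, and 13.5% of measured genes had a higher one. The RefSeq table lists 1 pseudogene of S100a10 and 5 of S100a11, with 2 further S100a11-like genes, and whether their transcripts add to these signals was not tested.

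S100a13 (Entrez gene 295213) takes part in the release of fibroblast growth factor 1 and interleukin-1 alpha, which leave the cell without a signal peptide. It had a signal of 157 in stimulated muscle against 130 in control muscle, a log2 ratio of 0.27, below the SD of a probe set. S100a1 (Entrez gene 295214), which binds the ryanodine receptor and the calcium pump of the sarcoplasmic reticulum, had a signal of 125 in stimulated muscle against 128 in control muscle. Its log2 ratio was -0.032, against a median of -0.42 over the 9 muscle fibre markers, of which 8 lay below 0. Of all measured genes, 52.3% lay above 0. The marker above 0 was Myh2, at 0.997, with a signal of 2010 in stimulated muscle against 1007 in control muscle. All 9 markers were far brighter than S100a1, and they were not recomputed under other scalings. Atp2a1, a muscle gene of similar brightness to the brightest of them, went from -0.43 to 0 with quantile normalization. The contrast with S100a1 may therefore depend on the scaling. S100a3 (Entrez gene 114216), a cysteine-rich member known from the hair cuticle, had a signal of 23.4 in stimulated muscle against 23.6 in control muscle, both close to the floor. Of 7 epidermal and hair markers with a probe set, 6 lay below the floor on both arrays, among them Krt5 and Krt14.

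S100a8 and S100a9 (Entrez genes 116547 and 94195) form calprotectin, an alarmin that neutrophils and monocytes carry in bulk and that binds zinc and manganese as well as calcium. S100a9 had a signal of 41.7 in stimulated muscle against 45.9 in control muscle, a log2 ratio of -0.14, which is 0.436 of the SD of a probe set. S100a8 had a signal of 16.8 in stimulated muscle against 8.37 in control muscle, both below the floor, so no fold is given. The S100a9 difference was thus smaller than the spread between probe sets, and S100a8 was too dim for a comparison. Of 10 neutrophil markers with a probe set, 6 were below the floor on both arrays, among them Mmp8, Mmp9 and Cxcr2. The 4 measured ones lay on both sides of 0, with Fcnb at least 2.62-fold lower, Il1r2 at a log2 ratio of -0.44, Lcn2 at 0.065 and Csf3r at 0.56, and only Lcn2 reached the floor in both samples. The summed signal of the 10, most of it that of Lcn2, was 215 in stimulated muscle against 248 in control muscle.

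**Figure D2:**
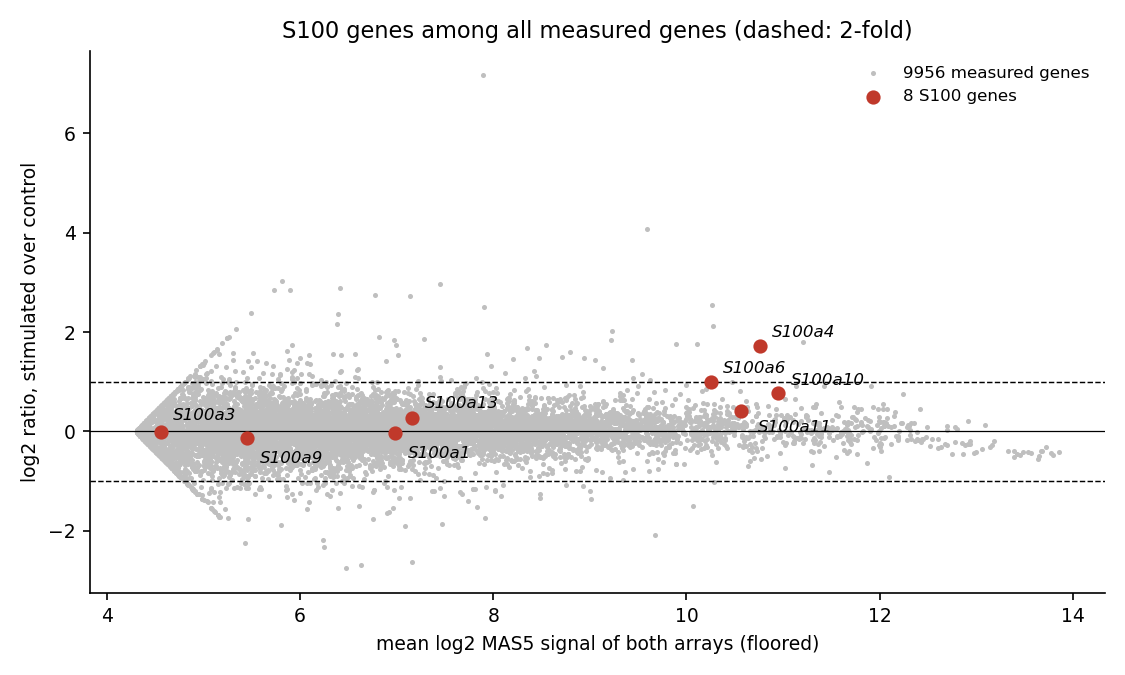
Log2 ratio of stimulated over control against the mean log2 signal of both arrays for the 9956 measured genes (grey), with the 8 measured S100 genes in red and dashed lines at 2-fold. S100a4 at 1.73 lies outside the dense cloud, S100a6 at 1.003 lies on the 2-fold line, and S100a1, S100a3 and S100a9 lie close to 0.

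S100a4, singled out here as the highest, differed from every other measured S100 gene by more than the spread between probe sets. Other pairs lay on both sides of that spread. S100a6 exceeded S100a1 by 1.03, whereas S100a13 exceeded S100a9 by 0.41 and S100a3 exceeded S100a1 by 0.019. The log2 ratio of S100a4 exceeded that of S100a6 by 0.72, that of S100a10 by 0.96 and that of S100a1 by 1.76, where a pair of probe sets of the same gene differed with an SD of 0.44. S100a6 and S100a10 differed by 0.24 and S100a10 and S100a11 by 0.36, both under that SD, so their order could not be told from these arrays. The 4 genes beyond the SD of a single probe set were also the 4 with signals of 500 or more on both arrays. That limit was chosen after their values were seen, so the counts made with it are a description only. Of the 1049 measured genes with such signals, 0.763% or 8 genes were at least 2-fold higher in the stimulated limb, and S100a4 and S100a6 were 2 of these 8. At 1.5-fold, 3.72% or 39 of these genes were higher, S100a10 among them, and 1.91% were lower. The median log2 ratio of the 1049 genes was 0.044.

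In the RefSeq gene order S100a4 lies between S100a3 and S100a5, with S100a6 next. S100a3 had a log2 ratio of -0.013, and S100a5 had a signal of 1.34 in stimulated muscle against 1.10 in control muscle, below the floor, so it has no ratio. The S100a3 signals were themselves only 1.18 and 1.19 times the floor. S100a8 and S100a9 follow after S100a7a, which was not analysed here. S100a11 and S100a10 are neighbours of each other and are separated from the nearest other S100 gene by 55 protein-coding genes.

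**Figure D3:**
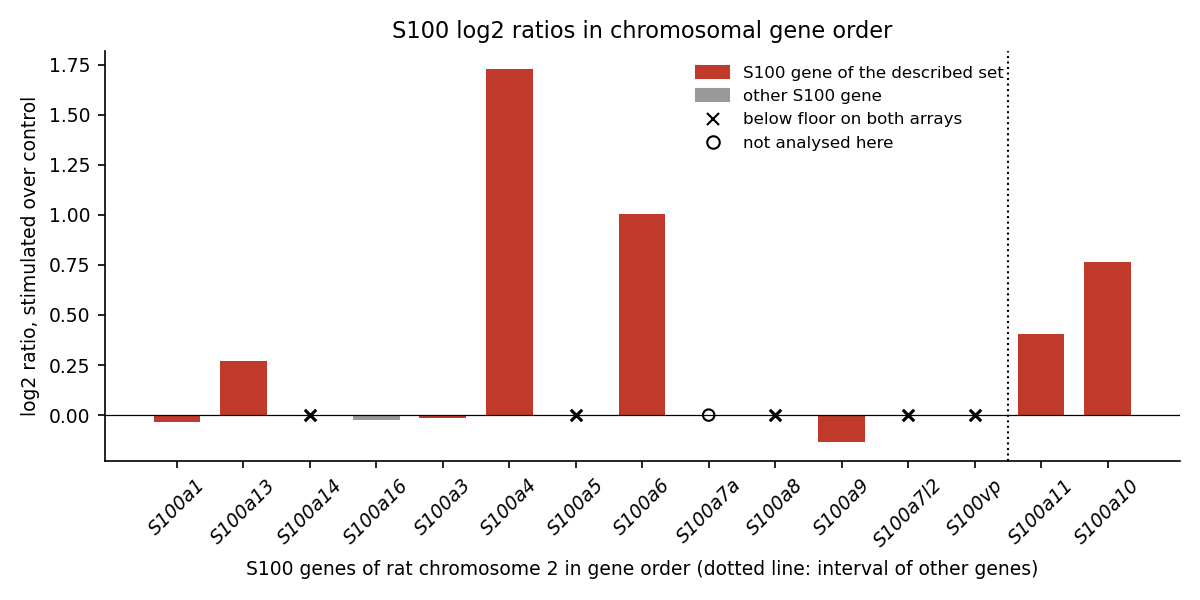
Log2 ratio of stimulated over control for the S100 genes of rat chromosome 2, except S100z, in the gene order of the RefSeq table, with members in red, the other S100 gene measured in grey, crosses for genes below the floor on both arrays and an open circle for a gene not analysed here. S100a4 at 1.73 stands between S100a3 at -0.013 and S100a5, which was below the floor. S100a6 at 1.003 stands between S100a5 and S100a7a, which was not analysed. Crosses and the open circle are drawn at 0 but stand for no ratio. S100a11 and S100a10 form a group of their own at the right of the dotted line.

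Among the other S100 genes with a probe set, S100a5, S100a7l2, S100a14, S100g and S100vp lay below the floor on both arrays. S100b, the Schwann cell and adipocyte member of the family, had a signal of 76.4 in stimulated muscle against 99.3 in control muscle, a log2 ratio of -0.38. Of 6 Schwann cell markers with a probe set, 4 were measured, with a summed signal of 940 in stimulated muscle against 905 in control muscle, most of it that of Pmp22. Mbp, a major myelin protein, was 2.18-fold lower, and its other probe sets had log2 ratios of -0.37 and -0.74. Prx lay at 0.49, while Pmp22 (0.23 and -0.16) and Cnp (0.28 and -0.43) had probe sets on both sides of 0. All 5 measured adipocyte markers lay below 0, where 52.3% of all measured genes lay above 0. Plin1 and Cidec were below the floor in stimulated muscle, so their ratios are bounds. The summed signal over the 6 with a probe set was 1305 in stimulated muscle against 3004 in control muscle. Most of it was that of Cfd (395 against 1683) and Fabp4 (819 against 1000). The part of either cell type in the S100b value was not tested. S100a16, a broadly expressed member, had a signal of 232 in stimulated muscle against 235 in control muscle.

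Markers of some other cells were higher in the same sample. All 15 monocyte and macrophage markers lay above 0 and 6 were at least 2-fold higher, against 52.3% and 1.43% of all measured genes. Their median log2 ratio was 0.78, but Cd14 (0.084), Cd163 (0.090) and Itgam (0.15) lay within the SD of a probe set. The summed signal of the 15 was 14082 in stimulated muscle against 6405 in control muscle. Lyz2 weighed most in it (5096 against 3449), and Gpnmb rose most (3165 against 188). All 4 tenocyte markers lay above 0 as well, with a summed signal of 1405 in stimulated muscle against 315 in control muscle. Of 7 fibroblast markers, 2 lay above 0 and 5 below, with a summed signal of 15059 in stimulated muscle against 17647 in control muscle, and of 8 endothelial markers 1 lay above 0 and 7 below, with 717 against 1052. The part of any of these cells in the S100a4, S100a6, S100a10 and S100a11 values was not tested. In bulk muscle, more cells of a type and more RNA per cell cannot be told apart.

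The partners of the S100 genes that were higher lay on both sides of 0. Myh9, the heavy chain of non-muscle myosin IIA to which S100a4 binds, had a signal of 145 in stimulated muscle against 200 in control muscle. Its log2 ratio of -0.46 lay 2.19 below that of S100a4. Cacybp, the partner of S100a6, had log2 ratios of 0.18 and -0.32 at its 2 probe sets. Anxa2, the annexin that S100a10 serves as light chain, had a signal of 1694 in stimulated muscle against 1201 in control muscle, and its log2 ratio of 0.50 differed from that of S100a10 by 0.27. Anxa1, a partner of S100a11, had a signal of 1285 in stimulated muscle against 830 in control muscle, a log2 ratio of 0.63. For both annexin pairs the difference was under the SD of 0.44 between probe sets. Fgf1, which S100a13 helps to export, had log2 ratio -0.55, with a signal of 51.2 in stimulated muscle against 75.1 in control muscle, and 2 further probe sets below the floor.

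**Figure D4:**
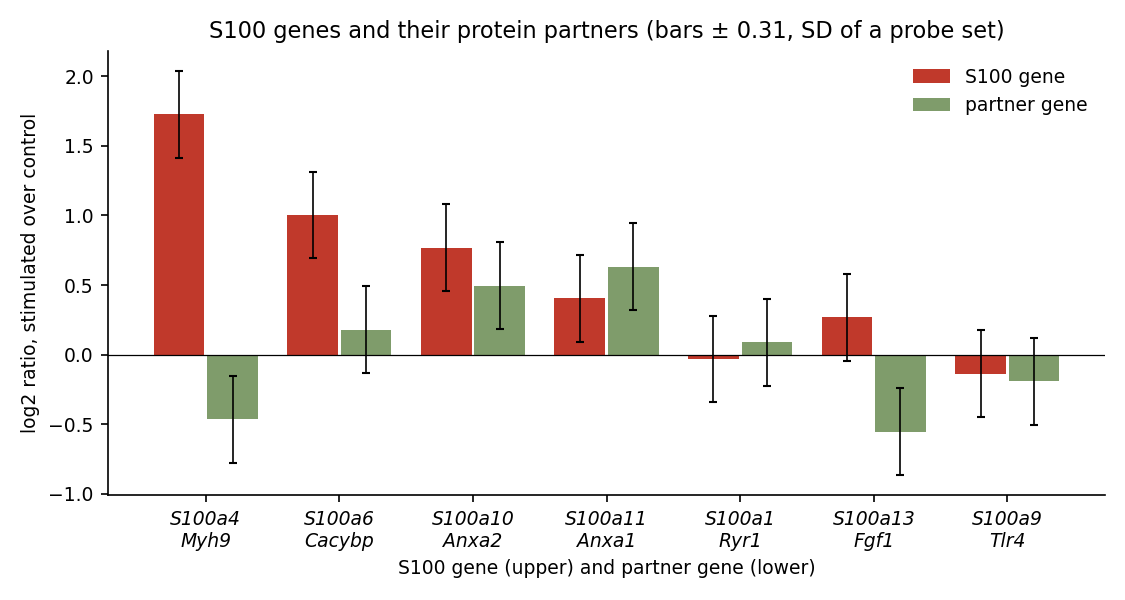
Log2 ratio of stimulated over control for S100 genes (red) and a gene of a known protein partner (green), with error bars of 0.31, the SD of a single probe set. S100a4 at 1.73 stands against Myh9 at -0.46, whereas S100a10 and Anxa2, and S100a11 and Anxa1, lie on the same side of 0 within 0.27 of each other.

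Over the whole list of intracellular partners, 21 of 25 genes with a probe set were measured. Of these, 10 lay above 0 and 11 below, where 52.3% of all measured genes lay above 0. At 2-fold, 0 were higher and 0 lower, where 1.43% of all measured genes were called in each direction. At 1.5-fold, 4 were higher and 0 lower, against 6.59% and 6.94% of all measured genes. The median log2 ratio of the list was -0.074. The sign of that median depended on the setting, since it was 0.093 under a floor at the 75th percentile, 0.089 without suffixed probe sets and 0 with quantile normalization. The genes with the highest ratios were Atp2a2, the slow-muscle calcium pump (0.89, with other probe sets at 0.38 and 0.29), Anxa5 (0.84), Pln, the pump inhibitor phospholamban (0.67, with another probe set at -0.55), and Anxa1. Anxa6, an annexin of muscle membranes, had a log2 ratio of -0.080. Of the S100a1 targets in the fibre, the ryanodine receptor gene Ryr1 had a signal of 1287 in stimulated muscle against 1210 in control muscle. The fast calcium pump gene Atp2a1 had a log2 ratio of -0.43, which was 0 with quantile normalization and -0.049 with scaling to the spike-ins.

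The receptor list held genes for receptors of released S100 proteins, a co-receptor and the adaptor Myd88, which is no receptor. Of its 6 genes, 5 were measured, with a median log2 ratio of -0.036, which is the value of Myd88. The median was 0.093 both under a floor at the 75th percentile and without suffixed probe sets. Ly96, which encodes the co-receptor MD-2 of Tlr4, was 2.13-fold higher, with a signal of 138 in stimulated muscle against 65.0 in control muscle. Its log2 ratio of 1.09 became 0.85 under a floor at the 75th percentile and 0.93 with 16 added, both under 2-fold. Tlr4 itself, a receptor of calprotectin, had a signal of 32.2 in stimulated muscle against 36.8 in control muscle. Ager, the receptor for advanced glycation end products, lay below the floor on both arrays. Cd36, a fatty acid transporter and scavenger receptor, had a log2 ratio of -0.52, and Bsg (basigin) one of 0.22.

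Other EF-hand proteins were a group of like biochemistry for comparison. Of 24 with a probe set, 21 were measured, with a median log2 ratio of 0.11. Of these, 15 lay above 0 and 6 below, where 52.3% of all measured genes lay above 0. At 2-fold, 1 of the 21 was higher and 0 lower, where 1.43% of all measured genes were called in each direction. The higher one was Tnnc1, the calcium sensor of slow fibres (log2 ratio 2.88). Its control signal of 31.4 was near the floor, and the log2 ratio was 1.60 under a floor at the 75th percentile and 2.39 with 16 added. Nucb2 (0.75), Nucb1 (-0.72) and Pdcd6 (0.55) followed by size. At 1.5-fold, 2 of the 21 were higher and 1 lower, close to the 6.59% and 6.94% of all measured genes, and 3 of the 8 S100 genes were higher. The difference between the lists was not tested.

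**Figure D5:**
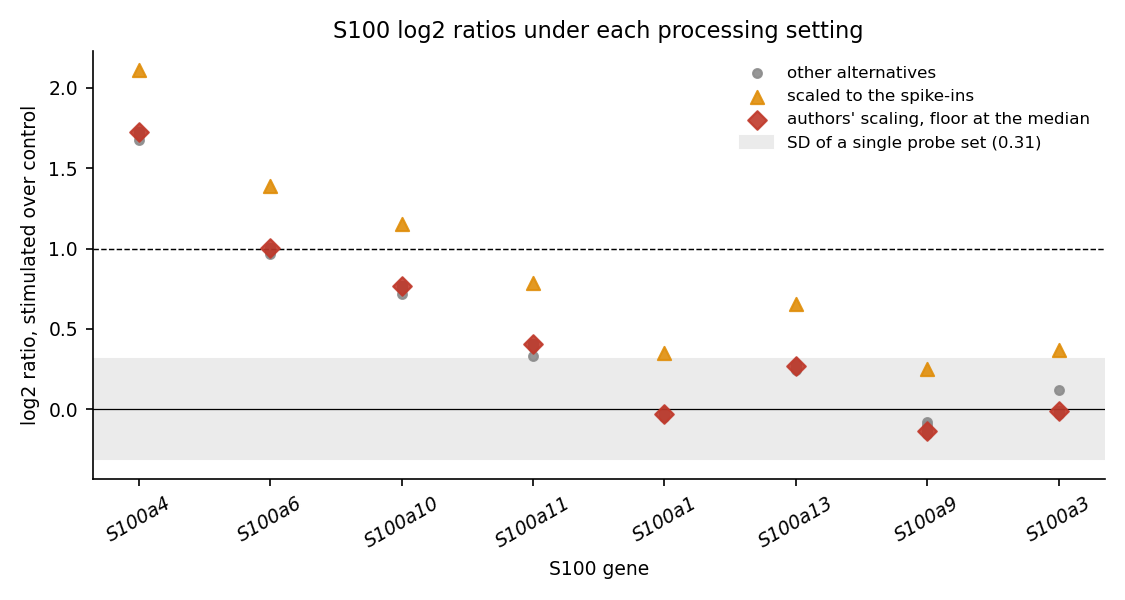
Log2 ratio of stimulated over control for the 8 measured S100 genes as reported (red diamonds), with arrays scaled to the spike-ins (orange triangles) and under the other alternatives (grey dots), with the SD of a single probe set of 0.31 as a grey band and 2-fold as a dashed line. S100a4 stays between 1.68 and 2.11, S100a6 lies at the 2-fold line, and the values scaled to the spike-ins lie above all others.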

How the data were processed

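RNA of 1 muscle sample per limb was labelled with biotin by one-cycle labelling and hybridised to 1 Affymetrix array each, per the labels' protocols. The deposited values are linear signal intensities per probe set, which the authors computed using MAS5 according to the submitters' processing notes; its version and target value are not stated there. Of 31099 probe sets, 57 controls were left out; 20832 had 1 gene symbol in the platform annotation, and 9956 genes were measured. A gene was measured where 1 of its probe sets reached the floor of 19.8 on at least 1 array, and was represented by its brightest such probe set. With 1 array per group there is no test and no p-value, and genes were counted at 2-fold. The number of arrays limits the precision. Calculations used Python 3.11.15, numpy 2.4.6 and pandas 2.3.3, and the counting was tested on simulated data. The S100 genes and the lists were chosen with earlier results of these data known. Genes named were all S100 genes measured, up to 4 measured members of the partner, receptor and EF-hand lists with the largest absolute log2 ratio, and Anxa2, Anxa1, Anxa6, Ager, Tlr4, Ryr1 and Atp2a1. Myh9, Cacybp, Fgf1, Myd88, the S100 genes below the floor and the single cell type markers were named after their values were seen. The 8 alternatives changed the floor, the scaling or the choice of probe set.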

Additional observations from a re-analysis of the deposited data

How the results depend on the processing

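The 2-fold counts, the S100 ratios and the medians of the S100 genes, partners, receptors and other EF-hand proteins were recomputed under 8 alternatives, of which S100a3 and S100a9 had values under 7. The marker lists and the 1.5-fold counts were not. S100a4, S100a6, S100a10, S100a11 and S100a13 stayed above 0 under all of them. The number of S100 genes at least 2-fold higher was 2 as reported, 1 with 16 added to both signals, 1 with quantile normalization, 1 with centring on the median gene, where S100a6 dropped below 2-fold by a small margin, and 3 with scaling to the spike-ins, where S100a10 passed it. Over all measured genes, such calls numbered 142 of 9956 as reported, 110 of 9956 with 16 added and 169 of 9946 with quantile normalization. They numbered 134 of 9956 with centring and 535 of 9986 with scaling to the spike-ins. Scaling to the spike-ins raised the log2 ratios to 2.11 for S100a4, 1.39 for S100a6, 1.15 for S100a10, 0.79 for S100a11, 0.65 for S100a13, 0.35 for S100a1, 0.25 for S100a9 and 0.37 for S100a3, the last 3 of which then lay above 0, and their median to 0.72, as it raised the median gene to 0.39. S100a3 also lay above 0, at 0.12, with quantile normalization. The same scaling gave medians of 0.18 for the other S100 genes, 0.35 for the receptors, 0.31 for the intracellular partners and 0.49 for the other EF-hand proteins. Relative to the median gene, S100a6 lay between 0.92 and 1.004 and S100a10 between 0.68 and 0.77 over all settings. With the floor at the 75th percentile, 6 S100 genes remained measured, without S100a3 and S100a9, and their median log2 ratio was 0.59. Over all genes, 142 were higher and 142 lower at 2-fold as reported, 52 and 49 under the floor at the 75th percentile, and 535 and 44 with scaling to the spike-ins. With the floor left out of the ratios, they were 274 and 346 of the same 9956 genes. The floor still chose the genes in that setting and with 16 added, so S100a8 could not enter either.

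No paired analysis was possible because each limb has 1 array. Leave-one-out settings were not run, as each group holds 1 sample. Each S100 gene rests on 1 probe set, so no second probe set checks its ratio. The signals of S100a3 and S100a9 near the floor, and of S100a8 below it, limit the precision for these genes.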
